A study of Mus musculus with 28 samples.

Results

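Keratinocytes of the outer root sheath (ORS) were set against keratinocytes of the surface epidermis (Epi) in mouse back skin. The comparison used the 4 libraries that the labels give to these populations, ORS 1 and 2 and Epi 1 and 2, of 28 libraries in the series. It covered every gene that reached 1 FPKM (fragments counted per kilobase of a transcript, a level the authors scaled in each library) in at least 2 of these 4 libraries, which held for 11816 of 23015 genes. Of these, 9949 reached 1 FPKM in all 4 libraries, 521 in both ORS libraries only, 339 in both Epi libraries only, and 1007 in other combinations. The second highest of the 4 values lay between 1 and 1.1 FPKM for 123 genes just inside this limit, and between 0.9 and 1 FPKM for 143 just outside it.

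ORS was the fraction with bright K14-H2BGFP (K14-H2BGFPHi in the labels) sorted from the dermal preparation, the part of skin that keeps its hair follicles once the epidermis is off. Epi was the K14-H2BGFP-positive fraction of the epidermal preparation. K14-H2BGFP places a green histone in the nuclei of cells that use the keratin 14 promoter. Both populations came from mice at postnatal day 5 with the genotype Lef1-RFP, on a mixed background of CD1, C57BI/6J and FVB/N. The preparation and the population therefore go together, and what either does to a value cannot be told apart. The labels do not say whether the libraries of a population came from separate animals. The p-values rest on a spread between libraries that was pooled over all 14 populations, and it may be technical in part. In both populations replicate 1 held RNA of the Y-linked gene Ddx3y (4.21 FPKM in ORS, 3.61 in Epi) and replicate 2 held almost none (0 in ORS, 0.0341 in Epi). The 2 libraries of each population thus did not hold the same mix of animals, and the number of animals is not stated. FPKM in bulk RNA are shares, so fewer cells of a type and less RNA per cell cannot be told apart.

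The outer root sheath is continuous with the basal layer of the epidermis and, like it, lies on a basement membrane and holds dividing cells that carry keratins 5 and 14. In the epidermis, cells that leave the basal layer switch to keratins 1 and 10 and then build the cornified envelope and the lipid barrier. Sheath cells wrap the inner root sheath and hair shaft and do not cornify in this way in the growing lower follicle, and the sheath holds the precursors of the bulge stem cells. Wnt, Hedgehog, BMP and FGF signals pattern both tissues.

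The labels were first checked against defining markers. Lgr5, a receptor for R-spondins and a marker of lower sheath and bulge cells, was at 93.9 and 102 FPKM in the ORS libraries, against 1.03 and 1.01 in the Epi libraries (log2 difference 5.61 ± 0.52 SE, adjusted p = 2.34e-07 in limma; mouse chromosome 10, 115450314 to 115587780, RefSeq on GRCm38.p6). Sox9, a transcription factor of sheath and stem cell precursors, was at 60.4 and 101 FPKM in ORS and 9.06 and 10.8 in Epi (log2 difference 2.86 ± 0.38). Lhx2, a factor of follicle progenitors, was at 164 and 98.1 in ORS and 10.7 and 1.67 in Epi (log2 difference 4.51 ± 0.69). All 3 sheath markers were higher in both ORS libraries than in both Epi libraries, as were 28.0% of all genes tested. Krt1 and Krt10, the paired keratins of cells that have left the basal layer, were lower in ORS. Krt1 (chromosome 15, 101845426 to 101850786) was at 7.96 and 0.548 FPKM in ORS and at 3434 and 2643 in Epi. Krt10 was at 7.67 and 4.09 FPKM in ORS and at 3811 and 2571 in Epi (chromosome 11, 99385254 to 99397449). For both, the ORS libraries lay below the Epi libraries, as they did for 23.7% of all genes tested. The Epi sort therefore held RNA of suprabasal as well as basal keratinocytes, so the sheath was not set against the basal layer alone. Of the cornified envelope genes, 14 of 26 tested were higher in Epi. Lor (0 and 1.93 FPKM in Epi) and Ivl (0.992 and 3.17) were low there and not called. The share of the upper layers in the sort was not tested. The basal keratins were lower in ORS too. Krt14, whose promoter drives the reporter, was at 484 and 442 FPKM in ORS and 6264 and 4486 in Epi (log2 difference -3.52 ± 0.52), and its partner Krt5 at 2386 and 2419 in ORS and 15798 and 9569 in Epi (log2 difference -2.36 ± 0.46). Bright reporter fluorescence in the ORS gate thus stood beside less Krt14 RNA than in Epi.

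**Figure D1:**
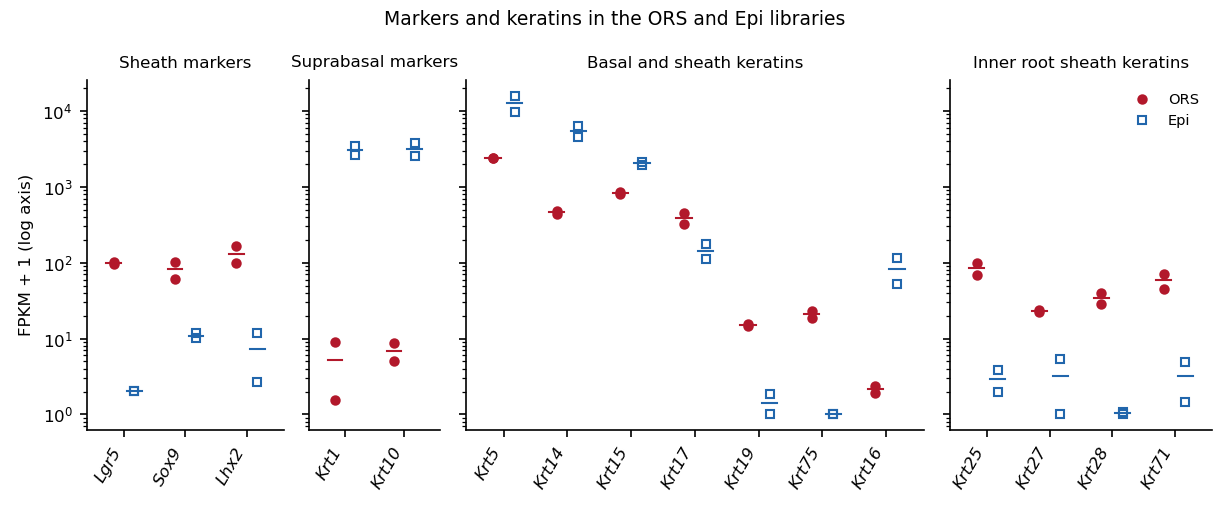
FPKM + 1 (log axis) of sheath and suprabasal markers, basal and sheath keratins and inner root sheath keratins, with a filled circle for each ORS library, an open square for each Epi library and a line at the mean of FPKM + 1 (n = 2 each). Krt1 and Krt10 lie far lower in ORS than in Epi, Krt14 and Krt5 lower by less, and Lgr5, Krt75 and the inner root sheath keratins higher.

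Differences were tested with limma on log2(FPKM + 1) across 15052 genes measured in the series, and a call needed both an adjusted p under 0.05 and a log2 difference of at least 1 in size. Of these, 805 (5.35%) were called higher in ORS and 675 (4.48%) lower, 9.83% together, and 2958 had an unadjusted p under 0.05. Among the 11816 genes of the comparison, 796 were called higher (6.74%) and 658 lower (5.57%), 12.3% together. A log2 difference of at least 4 was reached by 59 of the higher and 61 of the lower genes, and one of at least 6 by 5 and 15. Of the higher genes, 285 reached 1 FPKM in ORS alone and 69 were listed at 0 in both Epi libraries. Of the lower genes, 207 reached it in Epi alone and 39 were listed at 0 in both ORS libraries. An exact 0 can be a failed estimate in this table, since the abundant RNA Malat1 was listed at 0 in 10 of 28 libraries, and the fold of such a gene is not given. The Pearson correlation of log2(FPKM + 1) across genes was 0.955 between the ORS libraries, 0.943 between the Epi libraries and 0.782 to 0.805 between populations. Without ORS replicate 2, 519 genes were called higher and 423 lower, and the lone library was then taken to vary like the other populations.

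**Figure D2:**
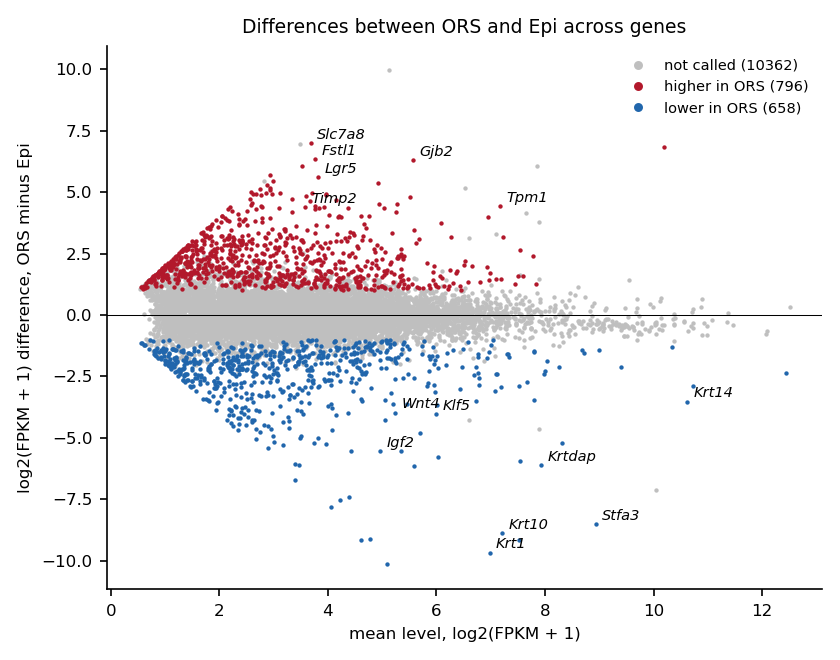
Log2(FPKM + 1) difference, ORS minus Epi, against the mean of both populations' log2(mean FPKM + 1), for the 11816 genes of the comparison. Red points are the 796 genes called higher in ORS, blue points the 658 called lower and grey points those not called. Some unlabelled points at the extremes are small RNAs and predicted genes.

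Among genes with a known name, the largest higher differences were those of a transporter, matrix and contractile proteins and a connexin. Slc7a8, a transporter of neutral amino acids, had a log2 difference of 7.01 ± 0.45, followed by Fstl1, a secreted follistatin-like protein (6.32 ± 0.35), and Gjb2, which encodes connexin 26 (6.31 ± 0.46). Mgp, Bgn and Col14a1 encode proteins of the extracellular matrix. Bgn, the proteoglycan biglycan, was at 201 and 174 FPKM in ORS and 5.72 and 2.01 in Epi. Hoxc13, a homeobox gene needed for hair keratins, was at 38.0 and 48.5 FPKM in ORS and 0.141 and 0.476 in Epi. Basp1, a membrane protein, was at 57.4 and 32.3 in ORS and 0.518 and 0 in Epi. The rest of the 15 largest were Lgr5, Myl9, Acta2, Krt28, Slit3, Msrb3, a methionine sulfoxide reductase, and Slc27a6, a fatty acid transporter. The largest lower differences after Krt1 and Krt10 were those of Stfa3, a stefin A protease inhibitor (log2 difference -8.49 ± 0.78), Npl, an enzyme of sialic acid breakdown (-7.54 ± 0.51), and Sprr4, a small proline-rich protein of the cornified envelope (listed at 0 in both ORS libraries). Aqp3, the water and glycerol channel of keratinocytes, was at 3.12 and 1.29 FPKM in ORS and 145 and 140 in Epi. Clca2 was at 9.6 and 5.82 in ORS and 338 and 650 in Epi, and Cyp2w1, a cytochrome P450, at 0.203 and 0.686 in ORS and 58.5 and 51.1 in Epi. Ly6d, Gdpd2, Calm4, Krtdap, Krt77, Ptgs1 and Igf2 made up the rest.

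Igf2, an insulin-like growth factor, and H19, a long noncoding RNA, are imprinted neighbours on mouse chromosome 7 (RefSeq, GRCm38.p6, 142650768 to 142666816 and 142575530 to 142578146). Both were lower in ORS. Igf2 was at 2.53 and 4.8 FPKM in ORS and 228 and 187 in Epi (log2 difference -5.52 ± 0.43, adjusted p = 2.67e-08). H19 was at 52.8 and 48.3 in ORS and 2290 and 1604 in Epi (log2 difference -5.22 ± 0.51, adjusted p = 4.36e-07), a gene chosen after its values were seen. Igf1r, the receptor through which Igf2 acts, was at 43.7 and 49.4 in ORS and 15.9 and 17.2 in Epi (log2 difference 1.44 ± 0.24).

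Of 25 transcription factors known from the sheath and bulge, 14 were higher in ORS, 1 was lower and 10 were not called, with a median log2 difference of 1.52 against 0.01 for all genes tested. Tbx1, a T-box factor of follicle stem cells, was at 50.4 and 34.7 FPKM in ORS and 0.242 and 0.579 in Epi (log2 difference 4.93 ± 0.67, adjusted p = 2.67e-05). Sox13 was at 37.1 and 21.0 in ORS and 0.428 and 0.0454 in Epi. Tcf7l1, a partner of beta-catenin that holds bulge cells in an undifferentiated state, was at 32.7 and 31.0 in ORS and 5.21 and 2.92 in Epi. Tbx1 and Sox13 reached 1 FPKM in ORS alone. Runx1, Foxp1 and Tcf7l2 were higher as well. Sox21, a factor of hair shaft differentiation, was the 1 lower member, at 10.7 and 8.88 in ORS and 69.4 and 38.3 in Epi. Nfix was at 168 and 103 in ORS and 147 and 116 in Epi and was not called. Of the 14 higher members, 9 were called under every alternative setting, and between 11 and 13 without any 1 library.

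Factors known from epidermal growth and differentiation divided, with 8 of 31 lower in ORS, 4 higher and 19 not called (median -0.33). Klf5, a factor of proliferating keratinocytes, was at 19.3 and 10.8 FPKM in ORS and 279 and 224 in Epi (log2 difference -4.02 ± 0.67, adjusted p = 0.000257). Pou2f3 was at 16.9 and 7.23 in ORS and 149 and 144 in Epi, and Rora, a nuclear receptor, at 2.75 and 1.01 in ORS and 35.0 and 43.9 in Epi. Klf4, which is needed for barrier formation, was at 16.4 and 12.2 in ORS and 110 and 72.9 in Epi. These 4 fell by more than the spread between libraries. In the other direction, Dlx3, a homeobox factor of hair and epidermal differentiation, was at 68.7 and 62.3 in ORS and 3.07 and 2.78 in Epi (log2 difference 4.08 ± 0.53). Prdm1 was at 17.4 and 14.1 in ORS and 1.12 and 0.979 in Epi. Trp63, the master factor of stratified epithelia, was at 366 and 352 FPKM in ORS and 446 and 410 in Epi, below Epi in both libraries but not called (log2 difference -0.25 ± 0.54, adjusted p = 0.938).

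Keratins outside the marker pairs also differed in both directions. Krt75, the keratin of the companion layer that joins outer and inner sheath, was at 17.9 and 22.2 FPKM in ORS and listed at 0 in both Epi libraries. Krt16, a keratin of activated keratinocytes, was at 1.35 and 0.906 in ORS and 113 and 51.6 in Epi (log2 difference -5.20 ± 0.51). Krt77, a relative of Krt1, was at 7.14 and 3.18 in ORS and 324 and 217 in Epi. Krt17, a keratin of sheath and appendages, was at 451 and 325 in ORS and 176 and 111 in Epi, higher in both ORS libraries but not called (log2 difference 1.45, adjusted p = 0.177). Krt15, known from bulge and basal cells, was at 795 and 843 in ORS and 1966 and 2115 in Epi. Its call (adjusted p = 0.0489) was lost without any 1 library, with an adjusted p of up to 0.212, and the p ranged from 0.0104 to 0.503 over all alternatives.

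Cornification genes were mostly lower. Of 51 listed genes 26 were tested, and 14 were lower in ORS, 1 was higher and 11 were not called, with a median log2 difference of -1.93. Their summed level was 613 and 499 FPKM in ORS and 11800 and 13500 in Epi, of which Stfa3 (41.5 and 12.4 in ORS, 8026 and 9203 in Epi) made up the larger share in Epi. Tgm3, a transglutaminase that crosslinks the envelope, was at 1.17 and 1.94 FPKM in ORS and 95.7 and 95.4 in Epi (log2 difference -5.26 ± 0.52, adjusted p = 4.46e-07). Casp14, the caspase of cornifying cells, was at 2.37 and 6.25 in ORS and 68.7 and 88.7 in Epi. Calm4, a calcium-binding skin protein, was at 6.73 and 3.02 in ORS and 371 and 415 in Epi. The plakin gene Ppl was at 30.7 and 29.2 in ORS and 140 and 105 in Epi. The 1 higher member was Tchh, encoding trichohyalin of the inner root sheath, at 30.1 and 20.0 in ORS and 2.19 and 2.50 in Epi. Of the 14 lower members, 9 were called under every alternative and 10 or 11 without any 1 library.

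Krtdap, Dmkn and Sbsn, secreted proteins of stratified epithelium, are neighbours on mouse chromosome 7, and all 3 were lower in ORS. Krtdap was at 35.6 and 22.1 FPKM in ORS and 1817 and 2173 in Epi (log2 difference -6.10 ± 0.73, adjusted p = 5.61e-06). Dmkn was at 52.5 and 38.6 in ORS and 356 and 433 in Epi (-3.10 ± 0.61), and Sbsn at 34.2 and 26.0 in ORS and 119 and 153 in Epi (-2.14 ± 0.41). The 250 bases before 3 annotated starts of these genes are shown because each holds the letters that AP-1 factors (Fos and Jun proteins) are known to bind, TGACTCA or its reverse complement TGAGTCA, in capitals. The sequences are from RefSeq on GRCm38.p6, written on the plus strand, which is that of the genes: chr7:30787655-30787904 for Krtdap, chr7:30763506-30763755 for a first Dmkn start and chr7:30776155-30776404 for a further one.
Krtdap: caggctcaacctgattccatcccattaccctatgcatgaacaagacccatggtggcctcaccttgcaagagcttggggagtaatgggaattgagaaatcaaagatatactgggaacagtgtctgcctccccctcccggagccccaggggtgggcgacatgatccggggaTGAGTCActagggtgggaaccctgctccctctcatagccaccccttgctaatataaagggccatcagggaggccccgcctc
Dmkn, first start: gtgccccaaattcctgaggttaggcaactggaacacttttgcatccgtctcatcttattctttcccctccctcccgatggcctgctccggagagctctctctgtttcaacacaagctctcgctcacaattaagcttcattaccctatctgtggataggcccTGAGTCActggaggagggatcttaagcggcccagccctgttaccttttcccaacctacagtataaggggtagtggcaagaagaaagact
Dmkn, further start: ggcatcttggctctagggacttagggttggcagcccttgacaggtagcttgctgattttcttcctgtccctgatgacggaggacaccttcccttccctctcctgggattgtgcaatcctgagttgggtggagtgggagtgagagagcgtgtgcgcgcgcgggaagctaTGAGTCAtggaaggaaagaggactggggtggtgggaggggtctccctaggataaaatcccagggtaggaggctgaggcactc
The match began 81 bases before the Krtdap start and 89 and 82 bases before the Dmkn starts. Sbsn held a match that spans its start. Both strands were searched in 300 bases around each start (250 before and 50 after), and 526 of 10903 tested genes with such a window held the 7 letters (4.82%). They were held by 30 of 565 genes called higher in ORS (5.31%), 46 of 482 called lower (9.54%) and 8 of 22 cornification genes (36.4%). Of the actin and myosin genes, none of which was lower, 5 of 23 held it (21.7%). Other letters were also frequent before the cornification genes: GGGTGTG, a KLF motif, was held by 27.3% of them and 10.3% of all, and TATAAA, the TATA box, by 27.3% of them and 9.71% of all. Among the cornification genes called lower, 4 of 12 held the AP-1 letters (33.3%), close to the 36.4% of the list. Ivl, Lor, Sprr1a and Scel of that list also held a match and were not called, so a match did not go with a call in every case. Of these, Lor and Ivl were low, at up to 1.93 and 3.17 FPKM, which leaves little room for a difference. The motif was 1 of 11 counted, chosen with the results known, and a match is a description of letters and not of binding.

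Proteases and inhibitors of desquamation, the shedding of surface cells, were lower with 12 of 22 tested and higher with 1. Of the 22, 10 reached 1 FPKM in 1 population alone, among them Klk8, Klk11 and Serpinb2 in Epi. Of 9 kallikreins 6 were lower and none was higher, with a summed level of 18.3 and 10.1 FPKM in ORS and 157 and 139 in Epi. Klk8 was at 0.671 and 0.201 in ORS and 21.3 and 16.3 in Epi (log2 difference -3.80 ± 0.31), and Klk11 at 0.587 and 0.212 in ORS and 26.3 and 24.8 in Epi. Serpinb2, a serpin of differentiated keratinocytes, was at 0.0375 and 0.19 in ORS and 32.3 and 38.3 in Epi. Of the 12 lower members 6 were called under every alternative, and 8 or 9 without any 1 library.

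Barrier lipid genes were lower with 15 of 34, higher with 2 and not called with 17 (median -1.06). Elovl4, which makes very long fatty acids for skin ceramides, was at 1.31 and 1.33 FPKM in ORS and 20.3 and 23.1 in Epi (log2 difference -3.28 ± 0.50). Sult2b1, which sulfates cholesterol, was at 1.35 and 0.966 in ORS and 21.1 and 17.5 in Epi, and the ceramidase gene Acer1 at 0.633 and 1.05 in ORS and 9.26 and 15.2 in Epi. Scd1 and Scd2, desaturases of fatty acids, were the 2 higher members, Scd2 at 64.0 and 54.6 in ORS and 21.3 and 12.4 in Epi. Of the 15 lower members 7 were called under every alternative.

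Among 20 genes of desmosomes and adherens junctions 6 were lower and none was higher, and the 6 (Dsg1a, Dsg1b, Dsc1, Dsp, Jup and Pkp1) all encode desmosomal proteins. Pkp1, which strengthens desmosomes, was at 69.7 and 63.2 FPKM in ORS and 549 and 455 in Epi (log2 difference -2.89 ± 0.40), and Dsg1a, a desmoglein of upper layers, at 22.9 and 28.2 in ORS and 114 and 142 in Epi. Of these 6, 3 were called under every alternative. Connexins went both ways, with 3 of 7 higher and 1 lower, although Gja1 was not called without ORS replicate 2 or either Epi library (adjusted p of up to 0.245, and 0.00184 to 0.245 over all alternatives). Gjb2 was at 315 and 515 FPKM in ORS and 6.47 and 2.48 in Epi, and Gjb6, its partner in gap junctions, at 24.5 and 27.1 in ORS and 3.32 and 2.55 in Epi. Gjb5 was at 1.68 and 2.31 in ORS and 19.7 and 13.5 in Epi. Cldn1, the main claudin of epidermal tight junctions, was at 74.1 and 87.1 in ORS and 88.8 and 109 in Epi and was not called.

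Basement membrane genes divided, with 11 of 43 higher, 4 lower and 28 not called (median 0.08). Higher were collagen IV and laminin chains found in most basement membranes. Col4a1 was at 81.4 and 61.6 FPKM in ORS and 5.26 and 2.03 in Epi (log2 difference 4.04 ± 0.41, adjusted p = 7.6e-07), and Lamb1 at 88.2 and 86.5 in ORS and 8.05 and 5.47 in Epi (3.53 ± 0.27). Lamc1 was at 146 and 147 in ORS and 53.8 and 35.4 in Epi. Lower were genes of hemidesmosomes and anchoring fibrils, which tie basal cells to the dermis. Of 10 such genes 4 were lower and none higher. Col17a1 was at 109 and 107 in ORS and 627 and 531 in Epi (-2.41 ± 0.43), Col7a1 at 5.90 and 5.00 in ORS and 43.6 and 35.7 in Epi, and Itga6 at 72.1 and 75.4 in ORS and 210 and 209 in Epi. Of the 11 higher members 5 were called under every alternative, and 7 or 8 without any 1 library.

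Secreted matrix genes were higher with 17 of 43, lower with 5 and not called with 21 (median 0.81). Timp2, an inhibitor of metalloproteinases, was at 51.6 and 55.2 FPKM in ORS and 2.24 and 1.06 in Epi (log2 difference 4.4 ± 0.24, adjusted p = 3.08e-10). Timp3 was at 428 and 496 in ORS and 80.2 and 66.7 in Epi, Igfbp5 at 44.0 and 52.3 in ORS and 2.89 and 2.83 in Epi, and Fn1, fibronectin, at 86.8 and 89.4 in ORS and 9.40 and 1.84 in Epi. The lower members included adhesive matricellular proteins. Tgfbi was at 8.06 and 5.19 in ORS and 145 and 139 in Epi (-4.26 ± 0.42), Sparc at 49.4 and 54.7 in ORS and 465 and 346 in Epi, and Postn at 41.5 and 127 in ORS and 477 and 505 in Epi. Of the 17 higher members 12 were called under every alternative.

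Of 27 actin and myosin genes, 13 were higher in ORS and none was lower (median 1.19). Tpm1, a tropomyosin, was at 542 and 815 FPKM in ORS and 28.3 and 31.5 in Epi (log2 difference 4.43 ± 0.27, adjusted p = 7.46e-10; chromosome 9, 67022590 to 67049672). Cald1, caldesmon, was at 138 and 236 in ORS and 7.63 and 6.19 in Epi (4.53 ± 0.29), Acta2, smooth muscle actin, at 36.7 and 59.1 in ORS and 0.903 and 0.192 in Epi, and Tagln at 52.0 and 76.1 in ORS and 1.93 and 2.31 in Epi. Zyx, a focal adhesion protein, was at 91.7 and 89.7 in ORS and 18.4 and 17.4 in Epi. Cytoplasmic actin was closer, with Actb at 1332 and 1387 in ORS and 926 and 885 in Epi, not called. Several of these genes are also used by smooth muscle and pericytes. Of 10 pericyte and smooth muscle markers 4 were higher (Acta2, Tagln, Cspg4 and Cnn1, all called under every alternative) and 1 was lower (Notch3), with a summed level of 143 and 185 FPKM in ORS and 19.3 and 14.3 in Epi. Cspg4, the NG2 proteoglycan, was at 44.7 and 36.5 in ORS and 5.17 and 1.75 in Epi, and Cnn1, calponin, at 5.19 and 7.34 in ORS and listed at 0 in both Epi libraries. The other 5 were not called and were each under 1.3 FPKM in ORS, among them Rgs5 at 0.588 and 1.19 FPKM, Myh11 at 1.12 and 1.29 and Des at 0 and 0.0575. The part of such cells in the actin and myosin genes was not tested. Of the 13 higher members 10 were called under every alternative.

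**Figure D3:**
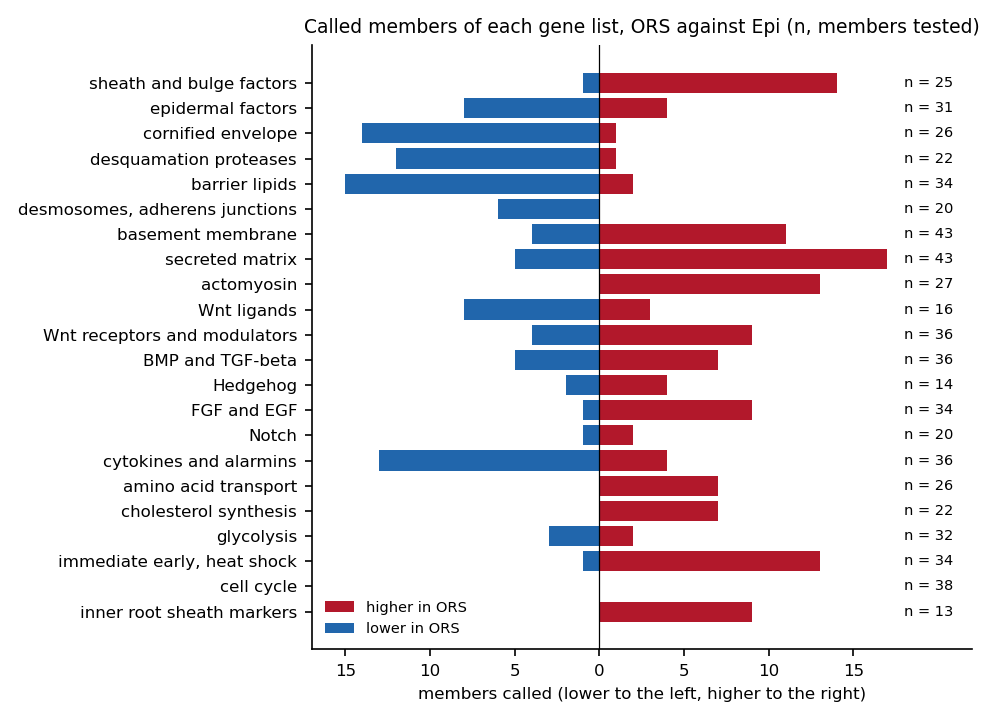
Number of members of each gene list called higher (red, to the right of 0) or lower (blue, to the left) in ORS against Epi, with the number tested (n). Sheath factors, secreted matrix, actomyosin and inner root sheath markers lie mostly to the right, and cornified envelope, proteases, barrier lipids, Wnt ligands and cytokines to the left.

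Most called Wnt ligands were lower in ORS, and most called Frizzled receptors were higher. Of 16 ligands tested, 8 were lower in ORS, 3 were higher and 5 were not called, and their summed level was 63.9 and 39.9 FPKM in ORS and 298 and 215 in Epi. Among the ligands, 8 reached 1 FPKM in 1 population alone. They included Wnt3, Wnt10b and Wnt16 in Epi and Wnt5a, Wnt5b and Wnt9a in ORS. Wnt4, the ligand with the highest level in Epi, was at 10.4 and 6.66 in ORS and 177 and 119 in Epi (log2 difference -3.97 ± 0.38, adjusted p = 2.69e-07; chromosome 4, 137277635 to 137299501). Wnt3 was at 0.251 and 0.499 in ORS and 22.1 and 23.9 in Epi (-4.13 ± 0.40), and Wnt16 at 0.223 and 0.0766 in ORS and 12.7 and 12.4 in Epi. Wnt10a, Wnt10b and Wnt7b were lower as well. Wnt5a, which signals mainly without beta-catenin, went the other way, at 25.0 and 16.1 in ORS and 0.169 and 0.686 in Epi (3.91 ± 0.32, adjusted p = 4.24e-08). Of 36 Wnt modulators, receptors and targets tested, 9 were higher (25.0%), 4 lower (11.1%) and 23 not called, with a median log2 difference of 0.13. Among 9 Frizzled receptors tested 5 were higher, 1 was lower and 3 were not called. Their summed level was 443 and 382 FPKM in ORS and 126 and 115 in Epi. Fzd1 was at 173 and 141 in ORS and 17.6 and 9.99 in Epi (3.45 ± 0.38), and Fzd7 at 134 and 97.5 in ORS and 11.8 and 8.96 in Epi (3.35 ± 0.28). Fzd5 was at 55.1 and 56.4 in ORS and 4.27 and 8.30 in Epi, and Lgr4, a relative of Lgr5, at 63.9 and 52.7 in ORS and 14.3 and 13.0 in Epi. The secreted modulators Sfrp1 (117 and 153 in ORS, 14.2 and 19.7 in Epi) and Dkk3 (37.4 and 42.4 in ORS, 5.38 and 5.13 in Epi) were also higher. Lef1, a partner of beta-catenin whose name the RFP reporter carries, was at 19.5 and 13.1 in ORS and 8.08 and 4.51 in Epi and was not called (adjusted p = 0.0645, and 0.00976 with the replicate number as a block). Of the 8 lower ligands 6 were called under every alternative, and the calls of the 4 lower modulators (Fzd10, Apcdd1, Kremen2 and Tnfrsf19) were lost without ORS replicate 2, with adjusted p from 0.0918 to 0.333, and those of all but Tnfrsf19 also without Epi replicate 1. Over all alternatives their adjusted p ranged from 2.29e-05 to 0.333.

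**Figure D4:**
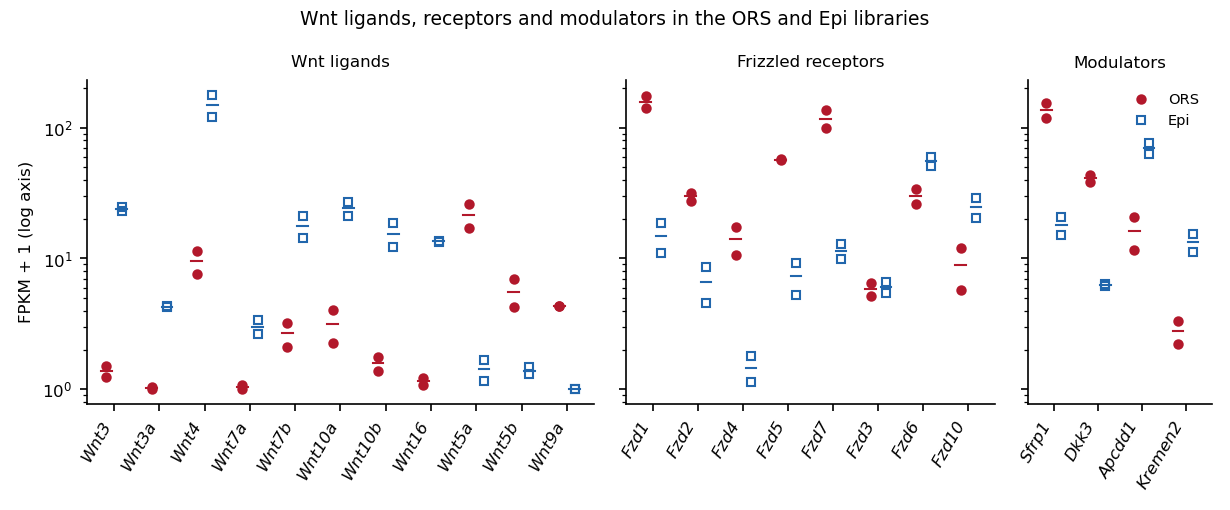
FPKM + 1 (log axis) of Wnt ligands, Frizzled receptors and modulators, with a filled circle for each ORS library, an open square for each Epi library and a line at the mean of FPKM + 1 (n = 2 each). Wnt3, Wnt4, Wnt10a, Wnt10b and Wnt16 lie lower in ORS than in Epi, and Wnt5a, Fzd1, Fzd5, Fzd7 and Sfrp1 higher.

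Of 14 Hedgehog pathway genes tested, 4 were called higher (28.6%) and 2 lower (14.3%), against 5.35% and 4.48% of all genes tested. Of these, the higher calls of Ptch1 and Gli1 held under every alternative. Ptch1, the receptor of the Hedgehog ligand and itself a target of the pathway, was at 214 and 144 FPKM in ORS and 60.4 and 29.2 in Epi (log2 difference 2.03 ± 0.35, adjusted p = 0.000401). Gli1, a further target, was at 37.4 and 26.1 in ORS and 7.46 and 1.31 in Epi (2.87 ± 0.48). The call of Gli3 was lost with a pseudocount of 5 and without ORS replicate 2 (adjusted p = 0.0586, and 0.00105 to 0.0586 over all alternatives). Leaving out 1 library gave 3 to 4 higher and 0 to 1 lower calls in the pathway. The BMP and TGF-beta list had 36 genes tested, with 7 higher (19.4%) and 5 lower (13.9%), of which 2 and 3 were called under every alternative. The ligand gene Bmp2 was at 1.1 and 1.26 in ORS and 19.9 and 20.7 in Epi (-3.29 ± 0.38), Bmp3 at 1.08 and 0.0384 in ORS and 11.7 and 9.21 in Epi, and the receptor gene Bmpr1b at 0.341 and 0.261 in ORS and 8.35 and 6.09 in Epi. Tgfb3 was higher, at 40.0 and 33.4 in ORS and 6.56 and 3.23 in Epi. Id genes, which respond to BMP signals, were higher with 3 of 4 (Id2, Id3 and Id4), although Id3 lost its call without ORS replicate 1 (adjusted p = 0.0619, and 0.000223 to 0.0619 over all alternatives). Id4 was at 13.9 and 27.7 in ORS and 1.20 and 1.46 in Epi.

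FGF signalling genes were higher with 9 of 34 in the FGF and EGF list and lower with 1. Fgfr1 was at 55.9 and 43.5 FPKM in ORS and 4.88 and 5.61 in Epi (log2 difference 3.01 ± 0.30), and Fgf5, which ends hair growth in mice, at 11.4 and 20.8 in ORS and listed at 0 in both Epi libraries. Dusp6, a phosphatase induced by FGF signals that dampens ERK, was at 37.3 and 44.4 in ORS and 0.582 and 2.33 in Epi (4.18 ± 0.33, adjusted p = 3.28e-08). Of 6 such feedback targets 5 were higher and none lower, with a summed level of 105 and 112 in ORS and 12.4 and 24.1 in Epi. Spry4 was listed at 0 in both Epi libraries. The calls of Etv4, Etv5 and Spry2 were lost without Epi replicate 1, with adjusted p from 0.133 to 0.55, and without ORS replicate 2. Those of Etv5 and Spry2 were also lost without ORS replicate 1, and that of Spry2 under 6 further settings, and over all alternatives their adjusted p ranged from 0.00239 to 0.55. Fgfr2, the keratinocyte receptor for FGF7 and FGF10, was at 137 and 118 in ORS and 247 and 229 in Epi, lower in both ORS libraries with a log2 difference of -0.90, under the size needed for a call.

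Of 20 Notch pathway genes 2 were higher and 1 was lower, and of these the lower 1, Notch3, was called under every alternative. It was at 2.09 and 2.02 FPKM in ORS and 10.4 and 9.60 in Epi, and Notch1, the main receptor of suprabasal cells, at 33.3 and 30.3 in ORS and 64.8 and 46.3 in Epi, not called. Guidance and growth factors were called in equal number, with 8 of 55 higher and 8 lower (14.5% each). Slit3, a guidance ligand, was at 77.0 and 65.6 in ORS and 2.04 and 0.725 in Epi (log2 difference 4.98 ± 0.45), and Nrp2, a semaphorin and VEGF co-receptor, at 72.9 and 52.1 in ORS and 2.08 and 1.05 in Epi (4.64 ± 0.32). Pdgfc, a platelet-derived growth factor, was at 1.39 and 1.45 in ORS and 20.7 and 23.3 in Epi.

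Cytokines, alarmins and prostaglandin enzymes were lower with 13 of 36 and higher with 4. Il33, an alarmin, was at 0.0913 and 0.288 FPKM in ORS and 16.1 and 17.8 in Epi (log2 difference -3.92 ± 0.35). Il34, the ligand that maintains Langerhans cells, was at 1.1 and 1.99 in ORS and 24.8 and 23.0 in Epi, and Il1rn, the antagonist of interleukin 1, at 2.56 and 1.29 in ORS and 44.9 and 47.2 in Epi. Ccl27a, a skin chemokine, was at 75.4 and 54.7 in ORS and 572 and 911 in Epi. The cyclooxygenases differed in direction, with Ptgs1 at 0.619 and 0.084 in ORS and 99.4 and 79.5 in Epi (-6.09 ± 0.38) and Ptgs2 at 8.36 and 9.71 in ORS and 0.950 and 1.27 in Epi (2.25 ± 0.38). Cxcl12, a chemokine, was at 20.4 and 47.5 in ORS and 0.1 and 0.0509 in Epi. None of 12 leukocyte markers was called by limma (1 at an unadjusted p under 0.05), and Ptprc, the common leukocyte antigen, was at 0.0263 and 0.0224 FPKM in ORS.

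Among metabolic genes, 7 of 26 amino acid transporters and 7 of 22 cholesterol synthesis genes were higher and none of either was lower. Slc7a8 was at 135 and 155 FPKM in ORS and 0.106 and 0.158 in Epi. Slc3a2, the heavy chain that pairs with this family of transporters, was at 123 and 122 in ORS and 49.8 and 48.8 in Epi. Insig1, a brake on sterol synthesis, was at 24.9 and 22.7 in ORS and 3.72 and 1.11 in Epi (log2 difference 2.97 ± 0.34). Each list kept 3 calls under every alternative. Of 32 glycolysis genes 2 were higher (6.25%) and 3 lower (9.38%), against 5.35% and 4.48% of all genes tested. Slc2a1, the main glucose transporter of keratinocytes, was at 26.7 and 14.8 in ORS and 190 and 173 in Epi (-3.13 ± 0.32), and the lactate transporter gene Slc16a1 at 1.86 and 2.11 in ORS and 28.1 and 34.3 in Epi.

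None of 38 cell cycle genes was called by limma, and 12 had an unadjusted p under 0.05. Of the 38, 32 were higher in both ORS libraries than in both Epi libraries, against 28.0% of all genes tested, and their median log2 difference was 0.89. Mki67, a marker of cycling cells, was at 244 and 237 FPKM in ORS and 162 and 116 in Epi (log2 difference 0.81 ± 0.58, adjusted p = 0.539). Cdkn1a, the cell cycle inhibitor p21, was at 33.0 and 26.1 in ORS and 259 and 227 in Epi (-3.0 ± 0.44, adjusted p = 7.07e-05).

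Immediate early and heat shock genes, which cell dissociation can raise, were higher with 13 of 34 and lower with 1 (median 1.14), and their summed level was 4060 and 3550 FPKM in ORS and 1620 and 2050 in Epi. Atf3 was at 101 and 57.1 in ORS and 0.493 and 8.30 in Epi, Nr4a1 at 81.1 and 40.9 in ORS and 1.74 and 2.2 in Epi, and Hspa1a at 89.5 and 47.8 in ORS and 5.67 and 5.13 in Epi. Fos was at 132 and 84.5 in ORS and 19.5 and 47.0 in Epi. Of the 13 higher members 7 were called under every alternative, and those of Fos, Jun and Egr1 were not (adjusted p without Epi replicate 1 or ORS replicate 1 of up to 0.246, and from 3.57e-05 to 0.246 over all alternatives). The dermal preparation and the ORS sort go together, so the part of the preparation in these genes cannot be told apart from that of the cells. Their part in the other differences was not tested.

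Markers of some other follicle cells were higher in ORS as well, while those of matrix progenitors divided. Of 11 matrix progenitor markers 3 were higher (Msx2, Hoxc13 and Dlx3), 3 were lower (Wnt10a, Wnt10b and Bmp4) and 5 were not called. Msx2, Hoxc13 and Dlx3 also count as hair shaft markers. The call of Bmp4 was lost under some alternatives. Of 13 inner root sheath markers 9 were higher and none lower (median 2.93), with a summed level of 621 and 443 FPKM in ORS and 81.2 and 87.2 in Epi. Krt25 was at 97.7 and 68.8 in ORS and 2.83 and 0.944 in Epi, Krt71 at 71.0 and 44.1 in ORS and 0.466 and 3.85 in Epi, and Cux1, a factor of the inner sheath also made elsewhere, at 286 and 198 in ORS and 23.1 and 12.6 in Epi. Of 15 hair shaft markers 4 were higher, among them Msx2 at 30.8 and 31.0 in ORS and 2.04 and 3.10 in Epi, while none of 9 hair shaft keratins was called by limma (3 at an unadjusted p under 0.05). Fibroblast markers were higher with 3 of 12 (25.0%, against 5.35% of all genes tested), at a summed 160 and 104 FPKM in ORS and 44.2 and 28.0 in Epi. Dcn, the proteoglycan decorin, was at 98.0 and 54.0 in ORS and 8.41 and 5.86 in Epi, Fbln2 at 13.6 and 9.07 in ORS and 0.669 and 0.293 in Epi, and Col3a1 at 2.21 and 4.3 in ORS and 0.0878 and 0.0845 in Epi, and of these the call of Fbln2 held under every alternative. Dcn was also high in the matrix sort (Mx), at 482 and 407 FPKM, beside 310 and 705 in dermal fibroblasts (DF). Among the markers not called, Thy1 was at 41.4 and 30.6 in ORS and at 34.3 and 21.3 in Epi, most of the Epi sum. In ORS, Col1a1 was at 1.17 and 1.96, Lum at 0.378 and 0.538 and Pdgfra at 0.208 and 0.316. Melanocyte markers were higher with 2 of 10 (20.0%), at a summed 31.2 and 26.3 in ORS and 6.19 and 6.44 in Epi. Both calls, of Dct and Kit, were lost under some alternatives, with 0 to 1 left without any 1 library and adjusted p of up to 0.288 for Dct and 0.212 for Kit there (0.000133 to 0.451 over all alternatives). Papilla markers were higher with 3 of 12 (25.0%), all called under every alternative. The summed level of all 12 was 59.6 and 52.4 FPKM in ORS and 4.72 and 5.44 in Epi, most of it from these 3. These were Prdm1, Vcan, the proteoglycan versican, at 33.1 and 25.9 in ORS and 2.83 and 1.58 in Epi, and Trps1 at 7.83 and 8.54 in ORS and 0.628 and 1.04 in Epi. Prdm1 also counts among the epidermal factors above. Sox2 and Sox18 of the papilla list were listed at 0 in all 4 libraries. Of its other members not called, Rspo3 was at 0.265 and 0.714 in ORS and 0.0322 and 1.66 in Epi. Crabp1 was at 0 and 2.32 in ORS and listed at 0 in both Epi libraries. The part of such cells in the differences above was not tested.

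The levels of the called genes were then read in the other sorts of the series. Of the 796 genes higher in ORS, 289 (36.3%) had their highest mean among the 8 populations of the line in ORS. Dermal papilla held it for 170 (21.4%), melanocytes for 115 (14.4%) and TAC, the Lef1-RFP-positive matrix progenitors, for 78 (9.8%). Of the 658 genes lower in ORS, 510 (77.5%) had their highest mean in Epi. Over all 11816 genes of the comparison these shares were 9.74% for ORS, 17.4% for Epi, 16.9% for dermal papilla, 20.5% for melanocytes and 12.3% for TAC. Since the called genes were chosen for being high in ORS or in Epi, their shares are a description and no support for the calls. HF-ORS, a sort of bright K14-RFP and high integrin alpha 6 cells without Sox9-GFP from a different mouse line, is labelled as the rest of the sheath. In HF-ORS, Krt1 was at 1481 and 1024 FPKM, Igf2 at 182 and 171, H19 at 2245 and 1471, Krtdap at 1388 and 2269, and Lgr5 at 1.88 and 4.44. HF-SC, the Sox9-GFP-positive sort of that line, had Krt1 at 238 and 203, Krtdap at 632 and 527, Lgr5 at 18.8 and 33.1 and Sox9 at 182 and 162. Of the 658 lower genes, 96.5% had a higher mean in HF-ORS than in ORS and 90.3% in HF-SC, against 45.8% and 44.2% of all 11816 genes. For the 796 higher genes these shares were 8.04% and 22.1%. The genes were chosen by their level in ORS, so these shares are a description. Epidermal and dermal preparation are not named for the HF-ORS and HF-SC sorts, and mouse line, gate and preparation cannot be told apart in their values.

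**Figure D5:**
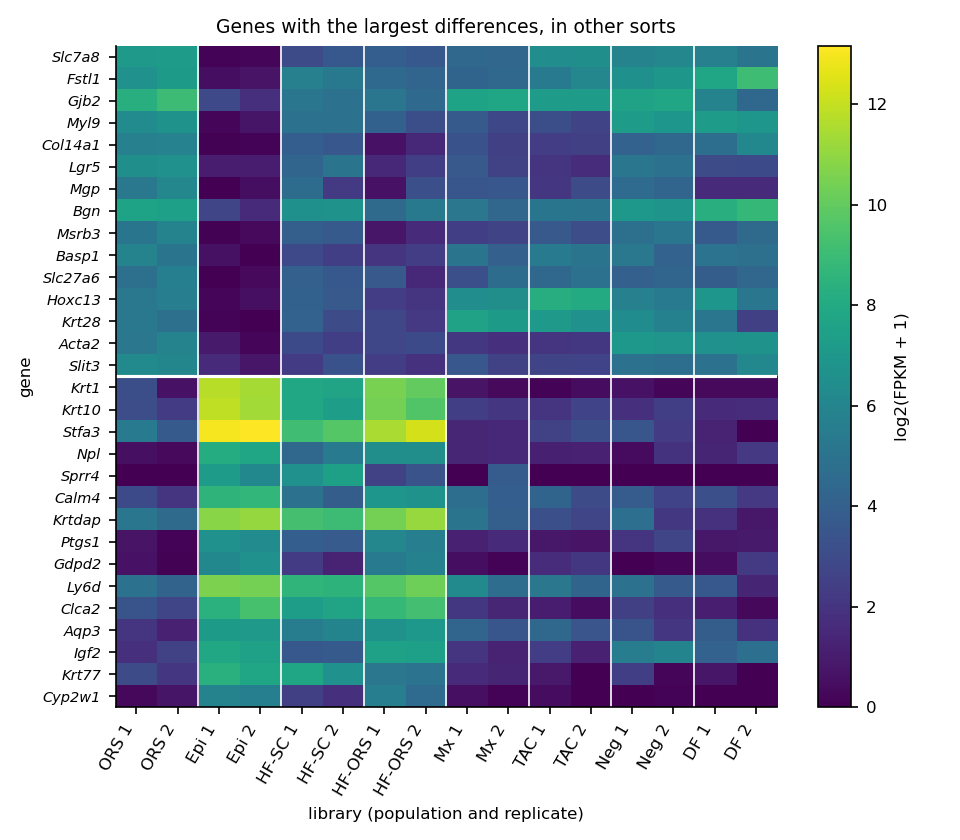
Log2(FPKM + 1) in each library of 8 sorts for the 15 named genes with the largest higher (upper block) and the 15 with the largest lower (lower block) difference of ORS against Epi. HF-ORS resembles Epi in the lower block, where Mx (matrix), TAC and DF (dermal fibroblasts) are mostly low, while Gjb2 and Krt28 are also high in Mx, TAC and Neg, the mixture of marker-negative cells.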

How the data were processed

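RNA of sorted cells was amplified from 6 ng of total RNA (RNA integrity number of at least 8.8) and libraries were made from 100.0 ng of cDNA, per the labels' protocols. The authors deposited 1 table of FPKM for 28 libraries of 14 populations, each with 2 libraries. The genome build was mouse mm10, which the submitters' processing notes list beside Cufflinks 2.1.1, Bowtie2 and TopHat2 2.0.3. For annotation, filters and strand, nothing is stated there. FPKM sums, from 285980.6 to 515224, are not depths: depth is unknown, so no counting interval is given. Upper quartiles lay between 10.31 and 11.08 FPKM, and no source says whether the table had been scaled between libraries. Of 23235 rows, 220 identical to another were dropped. Among the rest, 64 had a symbol found in more than 1 row, and 170 held several genes and cannot be divided. Paralogs of near-identical sequence, such as the stefin A and small proline-rich genes, are uncertain.

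Genes that reached 1 FPKM in 2 or more of the 28 libraries were tested on log2(FPKM + 1), a pseudocount of 1 that understates the change of low genes. The fit used limma 3.58.1 in R 4.3.3 with 1 mean per population and a trended prior (14 residual and 5.7 prior degrees of freedom), so that all populations shared 1 estimate of spread, and Benjamini-Hochberg adjustment. Two-sided tests were used throughout and were tested on simulated data. The comparison, the 47 gene lists and the tests were chosen with earlier results of these data known, and lists are described by counts alone. Named genes were the markers, the 15 with the largest difference in each direction whose higher population averaged 5 FPKM or more (without predicted genes, small RNAs and joined rows), and the leading called and uncalled members of each list. Further list members, and families within lists, were named after their values were seen. Some genes are not reported here. Alternatives were other pseudocounts, filters, scalings and sets of libraries, a replicate block, and leaving out each library.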

Additional observations from a re-analysis of the deposited data

How the results depend on the processing

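Each of the 14 alternatives kept the direction of the 209 calls among 307 named genes wherever the gene was tested. With a pseudocount of 5, 524 genes were called higher in ORS and 500 lower, and with one of 0.1, 915 and 586. Leaving out 1 library gave 942 to 1058 calls, 519 to 554 higher and 423 to 504 lower, fewer than the 1480, 805 and 675 of all libraries, since 1 population then had 1 library. Other filters, scalings and fits on 16 or 4 libraries gave 1357 to 1847 calls, within 1.5 times the main count. Deviations of same-numbered libraries from their population means correlated at 0.18 between ORS and Epi and at over 0.1 in 27 of 28 pairs of populations of the line (0.0574 to 0.275), and the labels tie no number to shared animals. Between mouse lines, some same-numbered pairs also exceeded 0.1, such as ORS with the papilla sort ZZ-DP (0.156), and others did not, such as ORS with HF-ORS (0.0464). Ddx3y also went with the number beyond ORS and Epi, in Mx (3.0 FPKM in replicate 1 and 0 in replicate 2), TAC (1.89 and 0), Neg (2.87 and 0) and DF (3.25 and 0). In the line of HF-SC and HF-ORS it went the other way (0.0176 and 25.3 in HF-SC, 0 and 19.2 in HF-ORS). With 2 numbers, 1 correlation under 0.1 in the line and others over 0.1 between lines, these values are at most a hint of pairing. Pairing was not taken as the design. With the replicate number as a block, 999 genes were called higher and 827 lower, 1826 in all, of which 803 and 670 were shared with the fit without it. The block added calls for 7 named genes, among them Lef1 and Hoxc8 (adjusted p = 0.00976 and 0.0205), and removed 1, that of Defb6. Of the named calls, 56 were lost under at least 1 alternative, 20 to 38 of them for each library left out. No scaling moved the median of all genes by 0.1 on the log2 scale. Depth is unknown, amplification from little RNA limits low genes, and 2 libraries per population leave the spread to be borrowed from the others.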

Other observations

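Of 28 Hox genes, which mark position along the body, 2 were higher in ORS (7.14%) and 1 was lower (3.57%), near the shares of all genes tested (5.35% and 4.48%), and Hoxc13, a gene of the follicle, had the largest difference and was the 1 called under every alternative. Hoxc8 was at 27.7 and 30.5 FPKM in ORS and 14.7 and 11 in Epi and was not called (adjusted p = 0.0205 with the replicate number as a block).

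Krt8 and Krt18, keratins of simple epithelia and Merkel cells, were listed at 0 in both Epi libraries. Krt8 was at 3.71 and 4.55 FPKM in ORS and Krt18 at 1.64 and 1.69. Both were called higher, although neither was called with a pseudocount of 5, and Krt18 was not called without any 1 of the 4 libraries (adjusted p of up to 0.104, and 0.00546 to 0.104 over all alternatives). Ngfr, a neurotrophin receptor, was at 5.81 and 8.54 in ORS and 0 and 1.28 in Epi. Of 12 Schwann cell markers 2 were higher (16.7%) and 1 was lower (8.33%), against 5.35% and 4.48% of all genes tested. Of 12 endothelial markers 1 was higher (8.33%), with a summed level of 7.01 and 9.82 in ORS and 0 and 0.343 in Epi. Myh8, a myosin of young muscle, was at 4.88 and 8.31 in ORS and 0 and 0.0508 in Epi, the 1 called of 7 muscle markers. Of 13 sebaceous gland markers 1 was higher (7.69%) and 2 were lower (15.4%), against 5.35% and 4.48% of all genes tested. The higher 1, Elovl3, did not reach the limit of the comparison. No sebaceous (Elovl3, Defb6, Cst6), Schwann cell (Ngfr, Ncam1, Mbp) or endothelial (Tek) call held under every alternative. Krt79, a keratin of the follicle canal, was at 70.3 and 53.4 in ORS and 163 and 115 in Epi and was not called.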
